A study of Mus musculus with 32 samples.

Results

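The 8 genes described here, Glul, Kcnj10, Rlbp1, Slc1a3, Aqp4, Vim, Apoe and Clu, are transcripts by which Müller glia are commonly recognised, and they were read in RNA from laser-captured mouse photoreceptors. They were taken by name from a table of 54232 genes. All 8 were in the table and all 8 passed the filter on low counts that left 17871 tested genes. The question was whether each gene rose and fell with the others from library to library within a group, or changed on its own with genotype or time.

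RNA was sequenced from photoreceptors cut by laser from snap-frozen eyes of 6-week-old male mice on a C57BL/6/J x 129 SvEvBrd background. The mice were either wild type (WT) or Per1-/-Per2Brdm1 (KO), which carry mutant alleles of both clock genes in all tissues, and the Brdm1 allele is known as an in-frame deletion that removes part of the protein. Eyes were collected at circadian times (CT) 19, 22, 1 and 10, where CT0 is the start of the subjective day, so that CT1 is subjective morning, CT10 late subjective day, and CT19 and CT22 subjective night. Each of the 8 combinations of genotype and time held 4 libraries, 32 in all, and the labels name no treatment. Libraries are named below by the animal number in their label, and values are given in this order: replicates 1, 2, 3 and 4 in WT CT19 and KO CT22, 1, 2, 3 and 6 in WT CT22, 1, 3, 4 and 5 in WT CT1, 1, 2, 4 and 5 in WT CT10, 2, 3, 4 and 5 in KO CT19 and KO CT10, and 1, 4, 5 and 6 in KO CT1. The labels do not say whether WT and KO mice were littermates.

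Müller glia are the radial glial cells of the retina. They span it from the inner to the outer limiting membrane, and their processes wrap every photoreceptor, so that a cut through the photoreceptor layer also passes through glia. They clear glutamate from synapses and convert it to glutamine (Slc1a3, Glul), carry potassium and water away from active neurons (Kcnj10, Aqp4), handle retinoids for the visual cycle (Rlbp1), and are held in shape by an intermediate filament (Vim). Apoe and Clu encode secreted lipid-binding proteins that glia release, although neither is made by glia alone.

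Each library held between 23833604 and 34582742 counts, so a level of 1 CPM, the unit of counts scaled to library size, rested on at least 23.8 counts, and the lowest count of any of the 8 genes in any library was 151, for Kcnj10. Per1 lay between 94.4 and 146 CPM in the 16 WT libraries and between 169.9 and 323 CPM in the 16 KO libraries. Per2 lay between 15.2 and 44.3 CPM in the former and 168 and 267 CPM in the latter. Both genes were thus higher in KO without overlap, and since counts cover the whole gene, they check nothing about the deleted part. Rod markers, such as Gnat1, summed to between 79590 and 142594 CPM per library. Lens crystallins and other lens markers summed to between 79.5 and 1273 CPM in WT at CT19, 257 and 3341 at CT22, 3325 and 12813 at CT1, and 2331 and 9081 at CT10. In KO these sums were 480.3 to 2077, 254.0 to 1605, 765 to 7341 and 376 to 2755 CPM. Among the libraries, WT CT19 replicate 3 stood lowest for the 8 genes, by 0.74 on average on the log2 scale below its group, and WT CT1 replicate 1 stood highest, by 0.54.

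The start regions of the genes were read for binding motifs of clock and hormone factors, since members that move together could share one. RefSeq (GRCm38.p6) start regions, each from 250 bases before to 50 after an annotated start, were matched for 6 of the genes, Glul, Kcnj10, Vim, Apoe, Rlbp1 and Slc1a3. Both strands were searched for the E-box CACGTG, the D-box TTATGTAA, the ROR element TAGGTCA and the glucocorticoid response element, which were present in 7.15%, 0.938%, 2.61% and 0.475% of all 32851 start regions. The single match was a ROR element in Glul, beginning 58 bases before the start site, and no E-box, D-box or glucocorticoid element was in these windows. The 250 bases before the start are shown for Glul, for the match (in capitals), and for Kcnj10, the gene with the largest genotype difference over the 4 times, in which none of the motifs occurred. The Glul stretch is chr1:153899679-153899928 and that of Kcnj10 chr1:172340960-172341209, both on the plus strand.
Glul: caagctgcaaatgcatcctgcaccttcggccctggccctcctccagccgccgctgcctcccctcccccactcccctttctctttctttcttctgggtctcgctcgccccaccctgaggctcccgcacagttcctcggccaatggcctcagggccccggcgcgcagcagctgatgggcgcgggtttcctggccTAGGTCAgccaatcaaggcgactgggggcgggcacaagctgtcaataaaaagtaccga
Kcnj10: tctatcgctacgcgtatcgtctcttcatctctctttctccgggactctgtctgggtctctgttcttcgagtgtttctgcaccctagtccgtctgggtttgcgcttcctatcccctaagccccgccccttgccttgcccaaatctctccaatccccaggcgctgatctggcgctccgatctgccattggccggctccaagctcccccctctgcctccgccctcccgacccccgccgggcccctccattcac

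The genes lie on 6 mouse chromosomes (GRCm38, GENCODE M21). Glul (ENSMUSG00000026473) spans positions 153899944 to 153909723 on the plus strand of chromosome 1, and Kcnj10 (ENSMUSG00000044708) spans 172341210 to 172374085 on the same strand of the same chromosome. Rlbp1 (ENSMUSG00000039194) lies on chromosome 7 from 79374870 to 79387048, minus strand, and Apoe (ENSMUSG00000002985) on chromosome 7 from 19696109 to 19699188, minus strand. Slc1a3 (ENSMUSG00000005360) lies on chromosome 15 from 8634124 to 8710764, minus strand, and Aqp4 (ENSMUSG00000024411) on chromosome 18 from 15389496 to 15410982, minus strand. Vim (ENSMUSG00000026728) lies on chromosome 2 from 13573927 to 13582826, plus strand, and Clu (ENSMUSG00000022037) on chromosome 14 from 65968483 to 65981547, plus strand. All 8 are protein-coding, and their values count reads over annotated exons. Glul shares 116 exon bases with Teddm2 on the opposite strand, which held 2503 counts over all libraries against 508008 for Glul.

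Per length of exon, the levels of the 8 genes differed widely. Glul was the most abundant, at 159 ± 49.6 RPKM, which is TMM-scaled CPM per kilobase of exon (SD over all 32 libraries). Rlbp1 followed at 27.6 ± 8.86 RPKM, Clu at 21.8 ± 3.96 and Apoe at 21.1 ± 5.48. Clu and Apoe differed by less than their spread. Each lay below Rlbp1 by more than its own SD but by less than the SD of Rlbp1. Vim stood at 5.86 ± 1.59 RPKM. Slc1a3 at 3.01 ± 1.16 RPKM, Aqp4 at 2.43 ± 0.871 and Kcnj10 at 2.24 ± 0.702 closed the order and overlapped one another. Every one of the 8 was thus detected in every library.

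Over the mean of the 4 times, 4 of the 8 genes were higher in KO, namely Kcnj10 (1.59-fold), Aqp4 (1.42-fold), Glul (1.33-fold) and Apoe (1.22-fold), and none was lower. Among all tested genes 16.3% were called in this comparison and 9.88% were called higher in KO, a call being an adjusted p under 0.05 in edgeR's quasi-likelihood test. The median log2 difference of the 8 genes was 0.38, against −0.00 over all tested genes. In bulk samples, more cells of a type and more RNA per cell cannot be told apart, so a higher level may be either. The same KO and WT libraries enter this mean and the comparisons at single times below. Without the filter on low counts the calls of Aqp4 and Apoe were lost (adjusted p = 0.0601 and 0.0738), and with the level of bipolar cell markers held, described below, none of the 8 was called.

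The largest of these differences was that of Kcnj10, which encodes the inwardly rectifying potassium channel Kir4.1, by which Müller cells take up and release potassium. In WT, Kcnj10 read 11.9, 10.97, 6.40 and 8.55 CPM in the CT19 group, 9.68, 16.5, 11.7 and 11.9 in the CT22 group, 12.4, 9.49, 6.69 and 9.24 in the CT1 group and 7.32, 5.53, 6.42 and 6.76 in the CT10 group. In KO, Kcnj10 read 16.8, 18.6, 15.9 and 10.2 CPM in the CT19 group, 11.7, 16.5, 14.3 and 13.8 in the CT22 group, 13.2, 16.9, 10.6 and 16.8 in the CT1 group and 14.3, 14.8, 17.7 and 13.3 in the CT10 group. At every time the mean of the KO libraries was above that of the WT libraries, and at CT10 all 4 KO libraries stood above all 4 WT libraries, while at the other times the ranges overlapped. Averaged over the times, Kcnj10 was 0.67 higher in KO on the log2 scale (SE 0.10, edgeR adjusted p = 1.56e-05). By time, KO exceeded WT by 0.70 at CT19 (SE 0.20, edgeR adjusted p = 0.0389), 0.18 at CT22 (SE 0.20, adjusted p = 0.811), 0.60 at CT1 (SE 0.20, adjusted p = 0.152) and 1.21 at CT10 (SE 0.20, adjusted p = 0.000236). The CT19 call was lost when any 1 of WT CT19 replicates 3 and 4 or KO CT19 replicates 2, 3 and 4 was left out, and the call over the 4 times was kept whichever library was left out.

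Aqp4 encodes aquaporin-4, the water channel that shares the glial endfeet with Kir4.1. WT libraries gave 20.7, 12.9, 7.03 and 15.4 CPM in the CT19 group, 16.8, 23.01, 15.001 and 17.3 in the CT22 group, 19.8, 10.3, 5.94 and 9.84 in the CT1 group and 12.6, 5.66, 7.28 and 5.50 in the CT10 group. KO libraries gave 19.6, 15.9, 20.5 and 10.7 CPM in the CT19 group, 18.9, 28.4, 19.5 and 15.7 in the CT22 group, 15.5, 16.02, 11.6 and 16.99 in the CT1 group and 17.4, 16.4, 20.8 and 16.6 in the CT10 group. At CT10 the KO libraries were close together and all above the WT libraries, of which replicate 1 was well above the other 3. Aqp4 was 0.51 higher in KO over the mean of the times (SE 0.15, edgeR adjusted p = 0.0251) and 1.195 higher at CT10 (SE 0.31, adjusted p = 0.0143), a 2.29-fold difference. The CT10 call was lost without WT CT10 replicate 2, WT CT10 replicate 5 or KO CT10 replicate 4, with adjusted p-values from 0.0548 to 0.0658. The log2 differences were 0.25 at CT19, 0.19 at CT22 and 0.39 at CT1, none of them called.

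Glul and Slc1a3 form the glutamate pathway of the glia, with the transporter GLAST (Slc1a3) taking glutamate up and glutamine synthetase (Glul) converting it. For Glul, the WT values were 684, 501, 315 and 508 CPM in the CT19 group, 482, 615, 509 and 490.4 in the CT22 group, 527, 354, 387 and 553 in the CT1 group and 463, 249.6, 286 and 343 in the CT10 group. For Glul, the KO values were 734, 869.6, 901 and 438 CPM in the CT19 group, 524, 888, 679.9 and 467 in the CT22 group, 469.6, 490.0, 389.6 and 496 in the CT1 group and 541, 509, 741 and 531 in the CT10 group. At CT10 all KO libraries exceeded all WT libraries, and at CT1 both genotypes lay in 1 range. Glul was 0.41 higher in KO over the times (SE 0.12, edgeR adjusted p = 0.0157) and 0.79 higher at CT10 (SE 0.23, adjusted p = 0.0291), a call that was lost without WT CT10 replicate 2, 4 or 5 or KO CT10 replicate 4 (adjusted p from 0.0594 to 0.136), and also with no filter on low counts (adjusted p = 0.0752).

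For the transporter the spread between libraries was wider than for any of the other 7 genes. Slc1a3 in WT was at 37.4, 31.4, 8.69 and 29.4 CPM in the CT19 group, 25.3, 34.02, 21.5 and 25.1 in the CT22 group, 36.1, 17.7, 11.6 and 13.8 in the CT1 group and 23.4, 9.43, 11.5 and 11.3 in the CT10 group. Slc1a3 in KO was at 35.97, 33.6, 34.2 and 20.9 CPM in the CT19 group, 28.8, 49.2, 37.9 and 22.7 in the CT22 group, 24.001, 24.5, 17.5 and 27.3 in the CT1 group and 29.1, 26.01, 40.5 and 23.5 in the CT10 group. WT CT19 replicate 3 was far below the other WT libraries of its time, and WT CT1 replicate 1 far above them. At CT10 KO stood above WT without overlap, if only just, KO replicate 5 and WT replicate 1 being nearly equal. The differences of Slc1a3 were 0.48 over the mean of the times (SE 0.18, edgeR adjusted p = 0.0745) and 1.10 at CT10 (SE 0.37, adjusted p = 0.0613), neither past the threshold. Without WT CT10 replicate 1 both were called, at 0.58 (adjusted p = 0.0260) and 1.47 (adjusted p = 0.0160), and without WT CT1 replicate 1 both were called as well (adjusted p = 0.0136 and 0.0339). The CT10 difference was also called without WT CT19 replicate 3 (adjusted p = 0.0247).

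Rlbp1 encodes CRALBP, the protein that binds 11-cis retinoids in Müller cells and in the pigment epithelium. WT levels of Rlbp1 were 98.7, 87.3, 41.2 and 85.9 CPM in the CT19 group, 82.2, 91.8, 71.7 and 70.1 in the CT22 group, 103, 51.7, 56.1 and 85.5 in the CT1 group and 80.004, 38.9, 44.3 and 53.5 in the CT10 group. KO levels of Rlbp1 were 134, 124, 111 and 68.9 CPM in the CT19 group, 84.5, 139, 111 and 54.4 in the CT22 group, 58.1, 77.6, 64.2 and 69.6 in the CT1 group and 94.2, 91.7, 115 and 69.96 in the CT10 group. The groups overlapped at every time, at CT10 because WT replicate 1 lay above KO replicate 5. Rlbp1 was 0.35 higher in KO over the times (SE 0.14, edgeR adjusted p = 0.0913) and 0.77 higher at CT10 (SE 0.29, adjusted p = 0.0868), and neither passed the threshold. The first was called without WT CT1 replicate 1, WT CT10 replicate 1, KO CT19 replicate 5 or KO CT22 replicate 4 (adjusted p from 0.0395 to 0.0498), and the second without WT CT10 replicate 1 (adjusted p = 0.0285).

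Vim encodes vimentin, the intermediate filament of Müller cells, which astrocytes, blood vessels and lens cells also contain. Vim was measured in WT at 34.1, 22.3, 12.4 and 25.8 CPM in the CT19 group, 22.8, 35.5, 20.2 and 28.9 in the CT22 group, 31.6, 22.2, 23.4 and 32.6 in the CT1 group and 35.5, 14.9, 18.6 and 37.7 in the CT10 group. Vim was measured in KO at 32.5, 41.2, 36.1 and 20.2 CPM in the CT19 group, 23.8, 43.4, 31.1 and 24.8 in the CT22 group, 19.8, 22.7, 33.8 and 26.3 in the CT1 group and 26.7, 31.8, 34.1 and 23.1 in the CT10 group. WT and KO overlapped at all 4 times, and at CT10 the lowest and the highest library were both WT. The difference was 0.17 over the times (SE 0.15, edgeR adjusted p = 0.489) and 0.12 at CT10 (SE 0.30, adjusted p = 0.858), and without WT CT10 replicate 2 or 4 the CT10 estimate fell to −0.09 and −0.02.

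Apoe encodes apolipoprotein E, which carries cholesterol between cells. Among WT libraries Apoe was 60.9, 45.7, 32.5 and 54.4 CPM in the CT19 group, 51.7, 53.1, 50.2 and 48.5 in the CT22 group, 56.2, 33.1, 34.7 and 39.3 in the CT1 group and 32.5, 21.9, 24.3 and 22.6 in the CT10 group. Among KO libraries Apoe was 51.6, 43.9, 53.5 and 48.4 CPM in the CT19 group, 48.7, 74.7, 52.5 and 42.1 in the CT22 group, 36.9, 45.3, 41.3 and 46.7 in the CT1 group and 47.9, 39.9, 64.5 and 43.96 in the CT10 group. Apoe had its lowest group mean in WT at CT10, and there all KO libraries were above all WT libraries. It was 0.28 higher in KO over the times (SE 0.09, edgeR adjusted p = 0.0331) and 0.95 higher at CT10 (SE 0.19, adjusted p = 0.00134), while it differed by 0.03 at CT19, 0.10 at CT22 and 0.06 at CT1. The call over the times was lost when any 1 of 13 libraries was left out, with adjusted p-values up to 0.0664: WT CT19 replicate 3, WT CT22 replicates 3 and 6, WT CT1 replicates 3, 4 and 5, WT CT10 replicates 2 and 5, KO CT19 replicate 4, KO CT22 replicate 2, KO CT1 replicates 4 and 6, and KO CT10 replicate 4. The CT10 call was kept in all 32 removals.

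Clu encodes clusterin, a secreted chaperone that also binds lipids. Its WT values were 103, 76.5, 63.6 and 61.1 CPM in the CT19 group, 73.3, 82.5, 78.6 and 75.2 in the CT22 group, 102, 62.2, 51.6 and 88.3 in the CT1 group and 65.6, 63.5, 45.3 and 73.7 in the CT10 group. Its KO values were 83.97, 75.2, 93.8 and 65.3 CPM in the CT19 group, 81.9, 88.5, 90.6 and 62.7 in the CT22 group, 65.4, 66.5, 79.1 and 68.6 in the CT1 group and 82.2, 64.4, 90.6 and 68.3 in the CT10 group. The ranges of WT and KO overlapped at every time, and 1 library in each of WT CT19 and WT CT1 stood above all KO libraries. Clu was 0.08 higher in KO over the times (SE 0.09, edgeR adjusted p = 0.617) and 0.30 higher at CT10 (SE 0.18, adjusted p = 0.332). Among the 8 genes it had the smallest difference over the mean of the times.

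**Figure D1:**
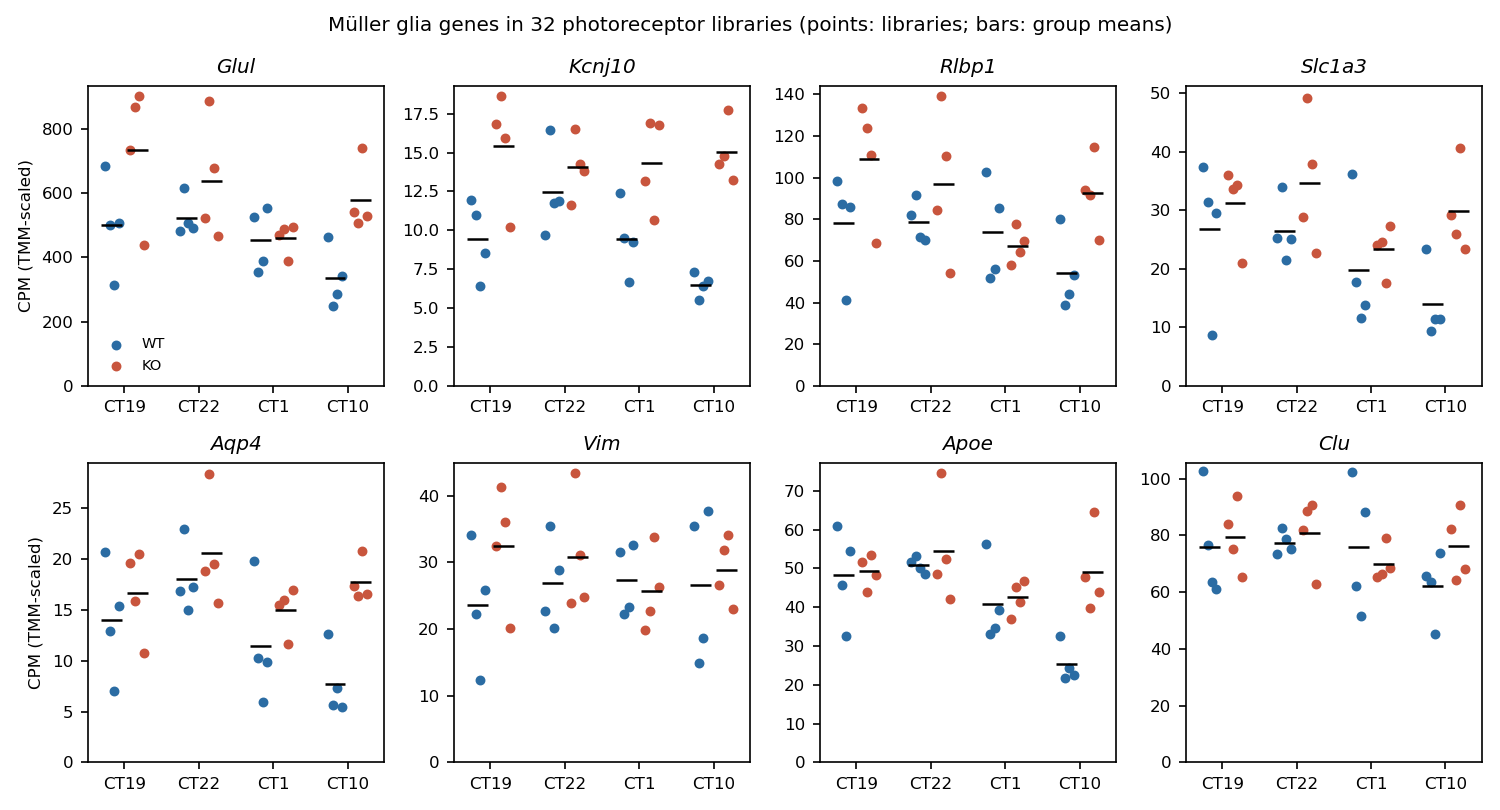
Level of each gene in CPM (vertical axis, scaled by TMM) in the 32 libraries, by circadian time, with WT in blue and KO in red, 1 point per library and a bar at each group mean of 4 libraries. At CT10 the WT points lie low and the KO points above them for Glul, Kcnj10, Slc1a3, Aqp4 and Apoe, while for Vim and Clu the genotypes are mixed at all 4 times.

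By time, the genotype difference of the 8 genes was widest at CT10. At CT19, 1 of 8 genes was called (Kcnj10), where 5.19% of all tested genes were and 2.89% were higher in KO, and without KO CT19 replicate 5 there were 2. At CT22 and CT1 none of the 8 was called by edgeR or by DESeq2, with 0 and 1 genes at an unadjusted p under 0.05, and 1.53% and 1.58% of all tested genes were called. At CT10, 4 of 8 were called (Glul, Kcnj10, Aqp4 and Apoe), all higher in KO, where 10.2% of all tested genes were called and 7.20% were higher. The median difference of the 8 was 0.87 at CT10, against 0.35, 0.20 and 0.04 at CT19, CT22 and CT1. All KO libraries lay above all WT libraries at CT10 for 5 of the 8 genes, where they did for 10.5% of all tested genes. At CT19, CT22 and CT1 they did for none of the 8, and for 5.52%, 3.61% and 3.40% of all tested genes. DESeq2 called 6 of the 8 at CT10, adding Rlbp1 and Slc1a3 (adjusted p = 0.0379 and 0.0312), and 2220 genes in all, against 1825 by edgeR.

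The test of whether the genotype difference itself varied over time (the interaction of genotype and time, an F test of 3 contrasts) called none of the 8 genes, where it called 1.62% of all tested genes. Apoe came nearest, its 4 differences ranging over 0.93 on the log2 scale (edgeR adjusted p = 0.0950), followed by Kcnj10 (range 1.03, adjusted p = 0.166). These 2 genes were the ones at an unadjusted p under 0.05, and DESeq2 called 1 of the 8. Leaving out WT CT19 replicate 3 or KO CT22 replicate 2 also gave 1 call. The larger difference at CT10 therefore did not pass a test of its own for any of the 8 genes in edgeR.

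Within WT, 3 of the 8 genes changed over the 4 times, Apoe (a range of 1.01 between its highest and lowest fitted mean on the log2 scale, edgeR adjusted p = 0.00173), Kcnj10 (0.93, adjusted p = 0.0138) and Aqp4 (1.21, adjusted p = 0.0413). Among all tested genes 14.6% changed over time in WT. The 3 genes had their lowest mean at CT10 and their highest at CT22: 25.3 ± 4.92 and 50.9 ± 1.99 CPM for Apoe, 6.51 ± 0.748 and 12.4 ± 2.87 CPM for Kcnj10, and 7.77 ± 3.34 and 18.03 ± 3.46 CPM for Aqp4 (SD, n = 4). Slc1a3 ranged over 0.94 (adjusted p = 0.201), Glul over 0.64 (0.171), Rlbp1 over 0.54 (0.429), Clu over 0.32 (0.483) and Vim over 0.21 (0.939). Without WT CT19 replicate 3 Slc1a3 was called too (adjusted p = 0.0457). The call of Kcnj10 was lost without WT CT22 replicate 2 or WT CT10 replicate 2 (adjusted p = 0.0524 and 0.0580). That of Aqp4 was lost without any 1 of WT CT19 replicates 2 and 4, WT CT22 replicates 1, 2, 3 and 6, WT CT1 replicate 5, WT CT10 replicates 2, 4 and 5, KO CT19 replicate 3, KO CT22 replicate 1, and KO CT10 replicates 2 and 4, with adjusted p-values up to 0.132. It was also lost with no filter on low counts (adjusted p = 0.108), with the library sets as a block (0.0604) and with the lens level held (0.0527). That of Apoe was kept in all removals.

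Within KO none of the 8 genes was called over time, by edgeR or by DESeq2, and none was at an unadjusted p under 0.05, but only 1 of all tested genes (0.0056%) was called there. Kcnj10 had the narrowest range in KO, 0.13 on the log2 scale, with group means from 14.1 ± 1.99 CPM at CT22 to 15.4 ± 3.65 CPM at CT19 (SD, n = 4). Rlbp1 and Glul had the widest, 0.70 and 0.67, both lowest at CT1.

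The bipolar cells, neurons of the inner retina that photoreceptors contact, were represented by 14 marker genes, and these moved with the glial genes across the groups. Their mean level fell in WT from 5.05 log2 CPM at CT22 to 3.92 at CT10, and stood in KO between 4.84 at CT1 and 5.26 at CT10. At CT10 their summed level lay between 692 and 849.8 CPM in the WT libraries and between 999.8 and 1118 CPM in the KO libraries, and 12 of 14 were called higher in KO, with a median difference of 1.34. Over the mean of the times 11 of 14 were higher in KO. None of these markers was at 0 in any library. Horizontal and amacrine cell markers were also higher in KO over the mean of the times, 6 of 8 and 5 of 12 being called. Photoreceptor markers were called mostly lower in KO, 4 of 10 rod markers lower and 1 higher, and 4 of 8 cone markers lower and none higher (median differences −0.15 and −0.30). Blood vessel markers ran the same way as the bipolar markers, with 5 of 10 higher in KO at CT10. Their summed levels there were 47.4 to 83.3 CPM in WT and 81.2 to 130 CPM in KO, the endothelial cadherin Cdh5 being at 0 in some libraries. Microglial markers summed to 15.6 to 23.7 CPM in WT and 17.9 to 20.4 CPM in KO at CT10. The mean level of these markers there was −1.001 log2 CPM in WT and 0.227 in KO. At CT10 0 of 8 tested were called by edgeR (6 at an unadjusted p under 0.05). Over the mean of the times 2 of 8 were called higher in KO and none lower, with a median difference of 0.56. Of the microglial markers 6 of 10, among them C1qa, P2ry12 and Tmem119, were at 0 in some libraries. Astrocyte markers summed to 238 to 265 CPM in WT and 280 to 311 CPM in KO at CT10. Their mean level at CT10 was 0.90 log2 CPM in WT and 0.88 in KO, with a median difference of −0.18. There 0 of 6 tested were called by edgeR (2 at an unadjusted p under 0.05), and over the mean of the times 1 of 6 was called, higher in KO. Among these markers Gfap was at 0 in some libraries and reached 3.93 CPM. Fits with the bipolar level held are given below, and the part of vessels, microglia and astrocytes in the glial differences was not tested.

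To read each gene against the glial signal as a whole, a reference level was formed as the mean log2 CPM of 13 other Müller markers, none of them among the 8 genes: Dkk3, Sox9, Lhx2, Hes1, Abca8a, Car14, Gpr37, Cp, Slc38a3, Prdx6, Spon1, Nr2e1 and Dbi. From CT19 through CT22 and CT1 to CT10, this level ran 4.06, 4.25, 3.92 and 3.57 log2 CPM in WT, and 4.42, 4.43, 4.09 and 4.29 in KO. It was thus lowest in WT at CT10, where the called genes were also lowest. Of the 13 markers 4 were called higher in KO over the mean of the times: Car14, a carbonic anhydrase (0.74), Dkk3, a secreted Wnt modulator (0.57), Gpr37, an orphan receptor (0.54), and Prdx6, a peroxidase (0.42). None was at 0 in any library. One of the 13, the glutamine transporter Slc38a3, ran against the other 12 within groups, and leaving it out of the reference, an alternative chosen after seeing the data, changed the call of none of the 21 results that rest on the reference.

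All 8 genes rose with the reference level when it was added to the model, where 15.8% of all tested genes had a called slope and 8.38% a positive one. The slope says by how much log2 expression changed per unit of log2 reference level within a group. It was steepest for Slc1a3 (1.48, SE 0.12, edgeR adjusted p = 6.79e-10), and lay near 1 for Aqp4 (1.22, SE 0.12), Rlbp1 (1.14, SE 0.10), Vim (1.12, SE 0.14) and Glul (0.94, SE 0.08). It was shallower for Kcnj10 (0.73, SE 0.11), Apoe (0.67, SE 0.09) and Clu (0.53, SE 0.11, adjusted p = 0.00181). Every one of the 8 slopes was called whichever library was left out, and with the bipolar level added to the model that of Kcnj10 was not (0.54, adjusted p = 0.102). Whether the slopes differed between genes was not tested.

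With the reference level held, Kcnj10 was the one gene of the 8 still called between the genotypes over the mean of the times, 0.42 higher in KO (SE 0.08, edgeR adjusted p = 0.000407), where 7.27% of all tested genes were called and 4.21% were higher. The others were not called: Aqp4 0.12 (SE 0.08, adjusted p = 0.415), Glul 0.08 (SE 0.06, 0.487), Apoe 0.05 (SE 0.06, 0.663), Slc1a3 0.02 (SE 0.08, 0.923), Rlbp1 −0.04 (SE 0.07, 0.800), Clu −0.11 (SE 0.08, 0.469) and Vim −0.20 (SE 0.09, 0.196). With Kcnj10 included, 2 of the 8 were at an unadjusted p under 0.05. The median of the 8 fell from 0.38 to 0.04. The Kcnj10 call was kept in all 32 removals of a library, and without KO CT1 replicate 5 Vim was called as well, lower in KO by 0.27 on the log2 scale (adjusted p = 0.0286). When the level of the bipolar markers took the place of the glial reference, none of the 8 was called, Kcnj10 included (0.27, adjusted p = 0.216), and the other 7 estimates were below 0. With both levels in the model Kcnj10 stood at 0.35 (adjusted p = 0.0599).

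By time and with the reference level held, Kcnj10 was higher in KO at CT1 (0.50, SE 0.13, edgeR adjusted p = 0.0421) and at CT10 (0.67, SE 0.16, adjusted p = 0.0122), and not called at CT19 (0.45, SE 0.14, adjusted p = 0.0622) or CT22 (0.06, SE 0.13, adjusted p = 0.914). Apoe was higher at CT10 by 0.46 (SE 0.12, adjusted p = 0.0325). Vim went the other way at CT10, with an estimate of −0.62 (SE 0.18, adjusted p = 0.0533) that missed the threshold. The counts were 0 of 8 at CT19 and CT22, 1 of 8 at CT1 and 2 of 8 at CT10, beside 3.12%, 1.51%, 1.95% and 3.08% of all tested genes, of which those higher in KO were 1.28% at CT1 and 2.02% at CT10. At CT19 2 of the 8 and at CT22 none were at an unadjusted p under 0.05, and DESeq2 called 1 and 0.

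These single-time calls rested on few libraries. That of Kcnj10 at CT1 was lost without any 1 of WT CT1 replicates 1, 4 and 5, KO CT1 replicates 1, 4 and 6, WT CT19 replicate 1, WT CT22 replicate 3, KO CT22 replicate 2 and KO CT10 replicate 4. At CT10 that of Kcnj10 was lost without WT CT10 replicate 1 (0.55, adjusted p = 0.0922), and that of Apoe without any 1 of WT CT19 replicate 3, WT CT10 replicates 1 and 5, KO CT19 replicate 5, and KO CT10 replicates 2, 4 and 5 (adjusted p up to 0.156). Vim at CT10 was called lower in KO without WT CT1 replicate 1 or 4, WT CT10 replicate 2 or 4, KO CT1 replicate 5 or KO CT10 replicate 3 (adjusted p from 0.0112 to 0.0472), and by DESeq2 (adjusted p = 0.0293). It was also called with the labels' library sets as a block (−0.62, adjusted p = 0.0479).

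Of 13 lens markers 7 were called over time in WT, and 1 was called between the genotypes at CT10, lower in KO. At CT10 they averaged 7.39 log2 CPM in WT against 4.84 in KO, and within groups Vim rose and fell with them (r = 0.69, given with its test below). With the lens level added beside the reference level, the CT10 differences of Kcnj10 (0.56, adjusted p = 0.267) and Apoe (0.34, adjusted p = 0.466) were not called. With the lens level held and no reference level, Vim was higher in KO over the mean of the times (0.39, SE 0.12, adjusted p = 0.0271), and its CT10 difference was 0.71 (SE 0.26, adjusted p = 0.0754). With both levels held, Vim stood at −0.015 over the times and at −0.15 at CT10 (adjusted p = 0.958 and 0.843). With the lens level alone held, Rlbp1 and Slc1a3 were called as well, over the mean of the times (0.50 and 0.61, adjusted p = 0.0132 and 0.0358) and at CT10 (1.17 and 1.42, adjusted p = 0.0119 and 0.0342). The interaction with the reference level held called none of the 8, where 1.81% of all tested genes were called, with 3 of the 8 at an unadjusted p under 0.05 and 1 called by DESeq2.

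**Figure D2:**
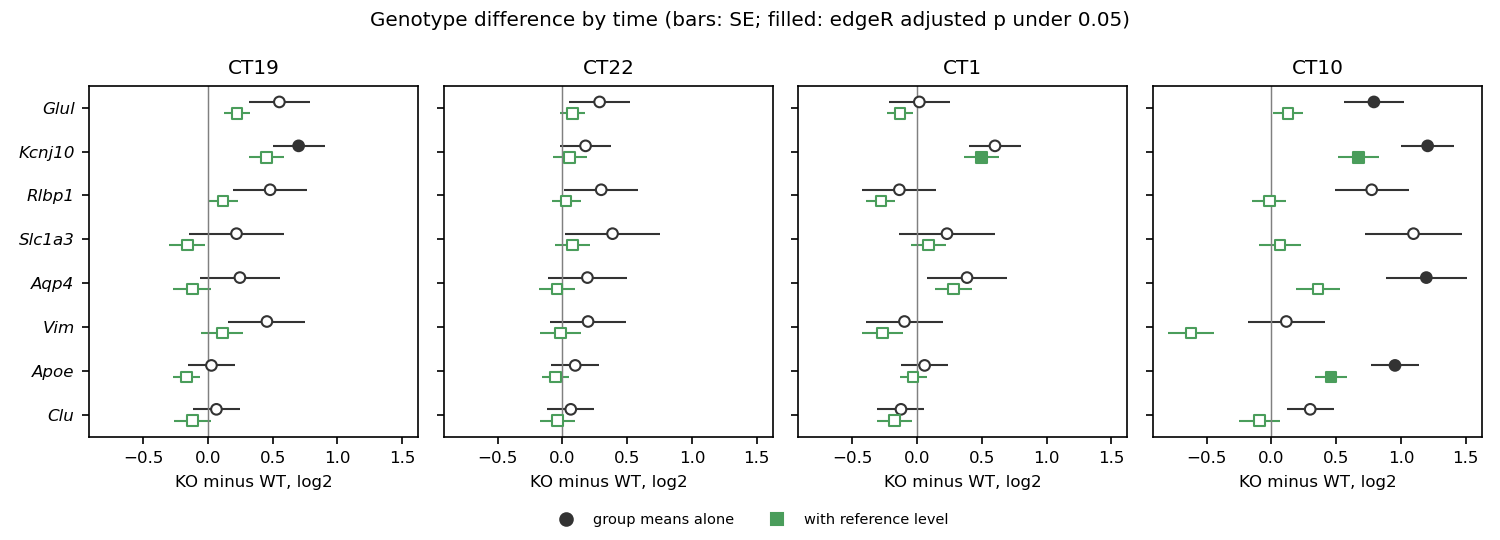
Difference between KO and WT on the log2 scale (horizontal axis) for each gene at each circadian time, from group means alone (circles) and with the level of 13 other Müller markers held (squares), with bars of 1 SE and filled symbols for an edgeR adjusted p under 0.05. At CT10 most circles lie near 1 and most squares near 0, and Kcnj10 is the gene whose square stays farthest to the right, at 0.67.

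Over time in WT with the reference level held, 2 of the 8 genes were called, Vim (a range of 0.73, edgeR adjusted p = 0.0110) and Apoe (0.57, adjusted p = 0.00417), where 12.5% of all tested genes were. Kcnj10 (0.42, adjusted p = 0.186) and Aqp4 (0.41, adjusted p = 0.220) were no longer called. Without the reference level the range of Vim over time in WT was 0.21. Over time in KO with the reference level held none of the 8 was called by edgeR, where 0.0056% of all tested genes were, and 1 was at an unadjusted p under 0.05.

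Within groups the 8 genes rose and fell together. Each value was taken as its deviation from its own group's mean on the log2 scale, so that neither genotype nor time entered, and the 28 pairs of genes were correlated over the 32 libraries. All 28 correlations were positive and passed a permutation test in which libraries were reassigned within groups (100000 permutations, two-sided, Benjamini-Hochberg adjusted over the 28 pairs, highest adjusted p = 0.0180). Pearson's r had a median of 0.77 and ranged from 0.53 to 0.93. By Spearman's rho, from 0.40 to 0.93, 27 of 28 pairs passed, all but Aqp4 with Clu (rho = 0.40, adjusted permutation p = 0.0608). Each r was also taken without 2 libraries, chosen anew for each pair. These were the 2 farthest from the median of the pair's first gene, in the order in which the genes are listed at the start. The median r was then 0.71 and the lowest 0.47.

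Slc1a3 and Aqp4, the glutamate transporter and the water channel, were the most alike pair (r = 0.93, rho = 0.93, both permutation p = 1e-05, the smallest that 100000 permutations can give, and r = 0.91 without the 2 libraries farthest for Slc1a3). Glul and Rlbp1 came next (r = 0.90, rho = 0.88, both permutation p = 1e-05, and r = 0.86 without the 2 libraries farthest for Glul). The loosest pair was Kcnj10 with Clu (r = 0.53, permutation p = 0.00797, rho = 0.50, permutation p = 0.00945, and r = 0.47 without the 2 libraries farthest for Kcnj10). Over its 7 partners the median r was 0.81 for Slc1a3, 0.80 for Rlbp1, 0.79 for Glul and Aqp4, 0.75 for Apoe, 0.72 for Kcnj10, 0.64 for Vim and 0.59 for Clu. In the 16 WT libraries alone the median of the 28 correlations was 0.77 and in the 16 KO libraries alone 0.68, with a lowest value of 0.28 in KO, again for Kcnj10 with Clu.

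The same can be read from single libraries. WT CT19 replicate 1, WT CT22 replicate 2 and KO CT10 replicate 4 were each the highest of their 4 libraries for all 8 genes. WT CT19 replicate 3 was the lowest for 7 of 8, the exception being Clu, and KO CT19 replicate 5 for 7 of 8, the exception being Apoe. Within-group spread was widest for Slc1a3, with an SD of 0.55 on the log2 scale, and narrowest for Apoe and Clu, at 0.27 each.

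**Figure D3:**
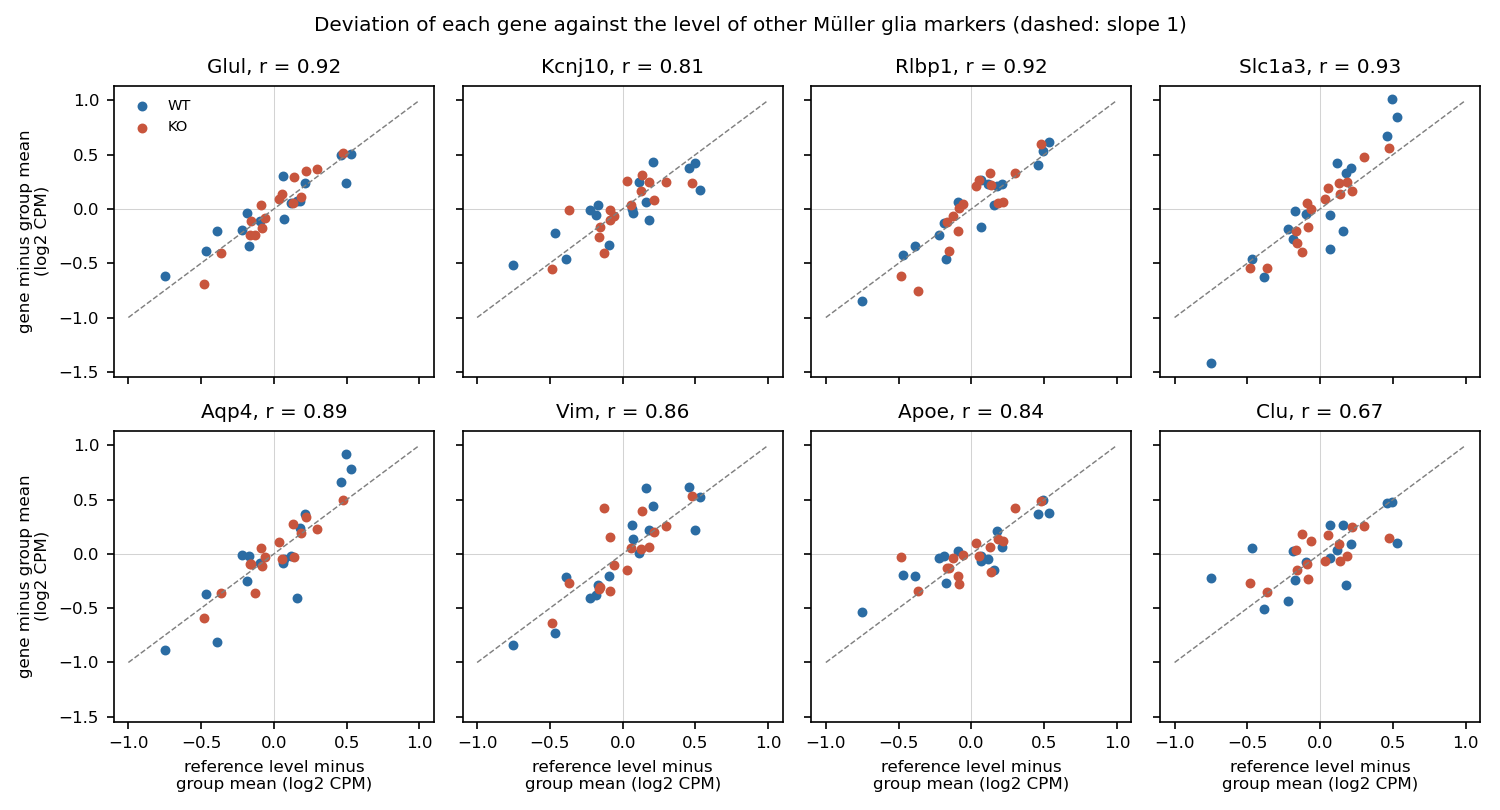
Deviation of each gene from its group mean (vertical axis, log2 CPM) against that of the reference level of 13 other Müller markers (horizontal axis, log2 CPM), 1 point per library, WT blue and KO red, with a dashed line of slope 1. The points scatter least around a straight trend for Glul, Rlbp1 and Slc1a3 (r = 0.92, 0.92 and 0.93), the trend of Slc1a3 being steeper than the dashed line (slope 1.48), and most for Clu (r = 0.67).

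The deviations were then set against the mean level of marker lists for 10 kinds of cell, 80 relations in all, tested by permutation as above and adjusted over the 80, and 51 passed. With the other Müller markers all 8 genes passed, r being 0.93 for Slc1a3, 0.92 for Glul and Rlbp1, 0.89 for Aqp4, 0.86 for Vim, 0.84 for Apoe, 0.81 for Kcnj10 and 0.67 for Clu. For each list, r was also taken without the 2 libraries farthest from the median of that list's level. With the other Müller markers rho was 0.89 and this r 0.90 for Slc1a3, and 0.66 and 0.65 for Clu (permutation p = 1e-05 for r and rho of Slc1a3 over all libraries, and 0.00177 and 0.000990 for those of Clu).

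Lists of inner retinal neurons and of vessels ran with the genes too. With bipolar markers 7 of 8 passed (r from 0.42 for Clu, not passing, to 0.86 for Slc1a3), with amacrine markers 8 (0.47 to 0.69), with horizontal cell markers 7 (0.32 to 0.76), with vascular markers 7 (0.40 to 0.89) and with microglial markers 7 (0.47 to 0.80). With astrocyte markers 5 passed (0.35 to 0.56). For Kcnj10 the bipolar list (r = 0.75, rho = 0.74, permutation p = 1e-05 and 4e-05, r = 0.78 without the 2 libraries farthest in bipolar level) was nearly as close as the glial one (r = 0.81, rho = 0.78, permutation p = 1e-05 and 2e-05, r = 0.75 without the 2 libraries farthest in the level of the other Müller markers). Whether the glial or the bipolar list was the closer was not tested.

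Rods, pigment epithelium and lens behaved differently. With pigment epithelium markers none of the 8 passed (r from −0.28 to 0.08), also not Rlbp1, which the pigment epithelium makes too (r = 0.08, rho = 0.06, permutation p = 0.733 and 0.755), and with rod markers none passed (r from −0.38 to 0.17). With lens markers 2 passed: Vim (r = 0.69, rho = 0.71, permutation p = 0.000120 and 8e-05, adjusted p = 0.000565 for r, and r = 0.65 without the 2 libraries farthest in lens level) and Rlbp1 (r = 0.51, rho = 0.52, permutation p = 0.00634 and 0.00477, adjusted p = 0.0127 for r, and r = 0.48 without the same 2 libraries). In the 16 WT libraries alone 30 of the 80 relations passed, and in the 16 KO libraries alone 25.

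**Figure D4:**
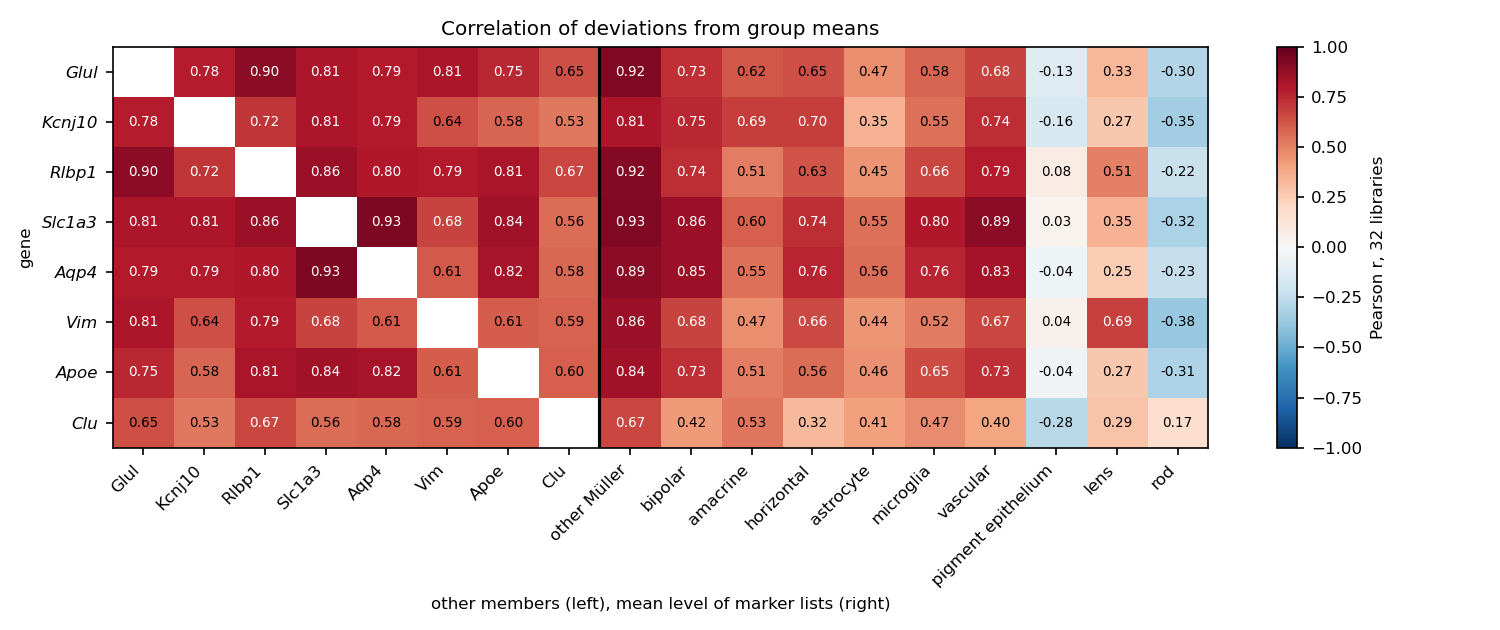
Pearson r (colour and number, from −1 in blue to 1 in red) of within-group deviations over 32 libraries, for each of the 8 genes (rows) with the other 7 genes (left of the black line) and with the mean level of 10 marker lists (right of it). The left block and the column of other Müller markers are red throughout, the rod and pigment epithelium columns are pale or blue, and in the lens column Vim stands out at 0.69.

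Among all 17871 tested genes, those most like each of the 8 in within-group deviations over the 32 libraries were partly other glial markers. For Slc1a3 they were Cp (r = 0.96), Plpp3 (0.96), Abca8a (0.95), Dkk3 (0.94) and Mlc1 (0.94), and for Aqp4 they were Cp (0.94), Slc1a3 itself (0.93), Plpp3 (0.92), Flt1 (0.92) and Cd9 (0.92). For Glul they were Sfxn5 (0.94), Parva, Vat1l, Lrrc75b and Acot11 (0.93 each), and for Rlbp1 Gnai2 (0.90), Glul (0.90), Ap1s1 (0.90), Gstm5 (0.89) and Ephb1 (0.89). Kcnj10 was most like Gpld1 (0.88), Efnb2 (0.87), Aldh1l1 (0.87), St8sia2 (0.86) and Lingo1 (0.86). Apoe was most like Ddr1 (0.88), Frzb (0.87), Necab2 (0.85), Dkk3 (0.85) and Slc1a3 (0.84). Vim was most like Pla2g16 (0.89), Csrp1 (0.89), Inf2 (0.88), Vat1l (0.88) and Efhd1 (0.87), and Clu most like Snap47 (0.86), Tkt (0.80), Sqstm1 (0.80), Adprh (0.79) and Tmem246 (0.79).

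The 8 genes were also near the top of one another's order, here taken over all tested genes. Of the other 7, 5 were among the 178 most alike genes (the first 1%) for Glul, Rlbp1, Slc1a3 and Aqp4, 4 for Apoe, 3 for Kcnj10, 2 for Vim and 1 for Clu. Within a library all genes share its depth and its cut, and the order is a description of these libraries.

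Genes that work beside the 8 in the same pathways were read from lists, in the comparison over the mean of the 4 times, where 16.3% of all tested genes were called. Of 10 tested genes of glutamate handling, 1 was higher and 1 lower in KO over the mean of the times: Grm6, the glutamate receptor of ON bipolar cells (0.66, edgeR adjusted p = 0.00798), and Slc38a2, a glutamine transporter (−0.16, adjusted p = 0.0428). The list had a median difference of −0.02.

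Of 14 tested genes of potassium, water and bicarbonate transport, 2 were higher and 2 lower in KO. Car14 (0.74, edgeR adjusted p = 9.18e-05) and Slc4a3, an anion exchanger of neurons (0.55, adjusted p = 0.00404), were higher. Among those lower was Aqp1, another water channel (−0.32, adjusted p = 0.000558). Of 11 genes of retinoid handling, 1 was higher, Dgat2 (0.76, adjusted p = 4.08e-05), an acyltransferase. Of 9 intermediate filament genes, 1 was lower, Bfsp2 (−2.37, adjusted p = 0.0286), a filament of lens fibres that ranged from 0.0632 to 67.0 CPM.

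Of 12 tested genes of lipoproteins and cholesterol, 4 were higher and 1 lower in KO. The lipoprotein receptors Lrp2 (0.71, edgeR adjusted p = 0.00191) and Lrp8 (0.20, adjusted p = 0.0327) were among those higher, and so was Lrp1 (0.48, adjusted p = 0.0353), a receptor for Apoe that falls outside the naming rule and was named after its values were seen. Scarb1, the receptor for high-density lipoprotein, was lower (−0.14, adjusted p = 0.0155).

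Genes that reactive glia raise after injury were not called between the genotypes over the mean of the times, 0 of 13 tested in edgeR, with 2 at an unadjusted p under 0.05. Cebpd (0.62, edgeR adjusted p = 0.1396), Timp1 (0.67, adjusted p = 0.173), Socs3 (0.29, adjusted p = 0.111) and Lcn2 (−0.21, adjusted p = 0.229) had the smallest p-values among them. At CT10, 2 of the 13 were called, where 10.2% of all tested genes were. Osmr, a cytokine receptor, was higher in KO (1.37, edgeR adjusted p = 0.00758) and Lcn2 lower (−0.78, edgeR adjusted p = 0.02496), Osmr being named after its values were seen. Gfap, the filament protein by which reactive Müller cells are usually recognised, ranged from 0 to 3.93 CPM (−0.61, edgeR adjusted p = 0.388), and it falls outside the naming rule and was named after its values were seen.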

How the data were processed

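RNA from laser-captured photoreceptors was extracted with a Qiagen RNeasy Micro kit and made into KAPA mRNA HyperPrep libraries, per the labels' protocols. Trimmomatic 0.32, HISAT2 2.1.0, Cufflinks, HTSeq 0.11 and GRCm38.p6 are named in the submitters' processing notes. The deposited values are raw counts per gene, not normalized by the authors. Identifiers were named from GENCODE M21 (99.9% matched).

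Counts were tested with edgeR 4.0.16 (R 4.3.3): TMM scaling, filterByExpr (minimum count 10, minimum total 15), robust quasi-likelihood fits of 8 group means, and Benjamini-Hochberg adjustment over 17871 genes with a threshold of 0.05. DESeq2 1.42.0 was an alternative. Log2 CPM used a prior count of 2. Within-group deviations were correlated and tested by permuting libraries within groups. Scripts were tested on simulated data. The members and lists were chosen with earlier results of these data known. Named beside the 8 genes are up to 4 genes of each related list with the smallest p over the 4 times, and the 5 most alike genes; some genes that this rule names are not reported here. No library was a copy of another: in the 48 pairs of libraries from 1 group, the ratio of chi-square to its degrees of freedom was 11.2 to 97.8. The labels number animals, so each library was taken as 1 animal, except that 1 label carries 2 numbers. The label of WT CT10 replicate 5 carries the letter R after its animal number, where the other labels carry L. Totals differed little, so precision is set mainly by the spread between libraries.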

Additional observations from a re-analysis of the deposited data

Results flagged for a closer look

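In 4 of the 64 sets of 4 libraries (8 genes in 8 groups) 1 library stood far from the other 3 by Dixon's test, and chance alone marks about 1 set in 20. Glul was 741 CPM in KO CT10 replicate 4, against 509 to 541 CPM in the other 3 libraries. In WT CT19 replicate 3, Rlbp1 was 41.2 CPM against 85.9 to 98.7 CPM, and Slc1a3 was 8.69 CPM against 29.4 to 37.4 CPM. Slc1a3 was 20.9 CPM in KO CT19 replicate 5, against 33.6 to 36.0 CPM. The first of these libraries was the highest of its group for all 8 genes, and each of the other 2 was the lowest for 7 of 8.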

How the results depend on the processing

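Of the alternatives, scaling by DESeq2's size factors (RLE) in edgeR left all 55 results it touched as they were. The number of the 8 genes called over the mean of the times was 4, and became 2 with no filter on low counts, 7 with the lens level as a covariate and 0 with the bipolar level. The CT19 count of 1 became 0 with the labels' library sets as a block, with the lens level and with the bipolar level. With the bipolar level the CT10 count fell from 4 to 0 and that for time in WT from 3 to 0. The interaction count rose from 0 to 1 by DESeq2. With the Müller reference level held, the count over the mean of the times fell from 1 to 0 with the bipolar level. The count at CT19 rose from 0 to 1 by DESeq2 and with a reference of its 6 highest genes, and so did that of the interaction. The count at CT1 fell from 1 to 0 with no filter, with the lens level, with the bipolar level and with the reference of 6 genes, and that at CT10 fell from 2 to 0 with the lens or the bipolar level. Relations with marker lists that passed numbered 51 over all libraries, 30 in WT alone and 25 in KO alone, the last 2 chosen after seeing the data.

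The bipolar level as a covariate reversed 13 estimates, none of them past the threshold. Over the mean of the times these were Glul −0.045, Rlbp1 −0.19, Slc1a3 −0.28, Aqp4 −0.15, Vim −0.34, Apoe −0.073 and Clu −0.13. At CT10 they were Glul −0.26, Rlbp1 −0.49, Slc1a3 −0.80, Aqp4 −0.42, Vim −1.07 and Clu −0.20. That covariate also took the calls over all tested genes from 2909 to 484 over the mean of the times. The cause was not tested.

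Leaving out 1 library at a time, the number of genes called ranged from 3 to 6 over the mean of the times, 0 to 2 at CT19, 2 to 6 at CT10, 1 to 4 for time in WT and 0 to 1 for the interaction. It was 0 in every removal at CT22, at CT1 and for time in KO. With the reference level held it ranged from 1 to 2 over the mean of the times, 0 to 1 at CT19, 0 to 1 at CT1, 0 to 3 at CT10 and 0 to 1 for the interaction, and was 0 at CT22 throughout. Slopes stayed at 8, pairs at 27 to 28 and marker relations at 45 to 55. The CT10 estimate of Vim ranged from −0.088 to 0.33, and that of Apoe over the mean of the times with the reference level from −0.0071 to 0.086.

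The animal numbers of the labels did not pair the libraries: the correlation of same-numbered libraries had a median of −0.011 over 77 pairs, and 8 of 32 libraries correlated best with their own number. With the number as a replicate block the interaction count was 1 and the count over the mean of the times with the reference level 2. In that block Slc1a3 was called over the times (0.62, edgeR adjusted p = 0.0151) and at CT10 (1.30, adjusted p = 0.0168), and Kcnj10 was not called for time in WT (0.83, adjusted p = 0.0527). With the reference level held, the block called Vim lower in KO over the times (−0.29, adjusted p = 0.0496) and at CT10 (−0.77, adjusted p = 0.0158). Depth limits little here, since the lowest count of any of the 8 genes was 151.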
